A study of Mus musculus with 12 samples.

Results

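Broad accessible regions were defined as ATAC-seq peaks of 1500 bp or more on chromosomes 1 to 19 in any of the 3 peak lists that reach every chromosome, merged where they overlapped between lists. Of 297584 peaks in these lists, 111 were that long, and they merged into 91 regions, against 166039 regions when all peaks were merged in the same way. The members were therefore chosen by a measured value, the length of the peak, so their lengths, their heights and their ranks are given as a description and are not tested.

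The tissue was the infralimbic part of the prefrontal cortex, from male C57BL/6 mice of 10 to 12 weeks. All mice had been fear conditioned with 3 pairings of a tone and a 0.7 mA shock. On the next day the EXT mice heard 60 tones without shock in another context, while the RC mice spent the same time with no tone. For each ATAC-seq library, tissue of 5 mice was pooled and 50000 cells positive for Arc and NeuN were taken by sorting, so each replicate stands for 5 pooled mice and not for 1 animal. Arc is a gene switched on by neuronal activity and NeuN is a protein of neuronal nuclei, so the libraries hold recently active neurons by their labels. Peaks lay at the ends of Arc in all 3 complete lists, and at those of Rbfox3, which encodes NeuN, in the list of EXT replicate 2 alone. An end peak was listed for 9 to 11 of 12 pan-neuronal markers and 8 or 9 of 9 excitatory markers, against 3 or 4 of 10 inhibitory, 3 or 4 of 9 microglial, 4 of 8 astrocyte, 3 to 5 of 9 oligodendrocyte and 1 to 4 of 8 endothelial markers. Of all protein-coding genes, 58.1%, 55.2% and 63% had such a peak in RC replicate 3 and EXT replicates 1 and 2.

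The complete lists are those of EXT replicates 1 and 2 and of RC replicate 3. In the order RC replicate 3, EXT replicate 1, EXT replicate 2, which is kept below, they hold 96459, 79656 and 121469 peaks on chromosomes 1 to 19, from 73.8, 65.0 and 57.7 M tags. The lists of RC replicates 1 and 2 stop within chromosome 1, and EXT replicate 3 and the lncRNA capture libraries were not analysed here. With 1 complete RC list, EXT and RC could not be compared over the genome.

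ATAC-seq marks DNA that a transposase can reach. Most accessible sites are short, about the gap left where transcription factors displace a nucleosome. Long stretches of accessible DNA are known at promoters rich in CpG dinucleotides, where nucleosomes are sparse and DNA methylation is low, at promoters shared by a pair of genes transcribed in opposite directions, and at clusters of highly transcribed small RNA genes. At imprinted genes, CpG-rich control regions are methylated on the chromosome from one parent only, so accessibility there can come from one allele.

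Annotated starts of 46 genes fell inside broad regions, with 59 start windows in the RefSeq table of GRCm38.p6. Of the 56 genes with an end at a broad region, 45 had an entry there. The windows of 300 bases below run from 250 bases before the start to 50 after it, on the strand of the gene, with each CG dinucleotide in capitals. They were picked after their values were seen: 1 of the 2 genes that start inside a region broad in all 3 lists (4930526I15Rik), 3 coding starts in regions broad in 2 lists (Ube3a, Chid1 and Emsy), the start window with the most CG (Apba1) and the one with the fewest (6430548M08Rik).
4930526I15Rik (chr9:124423537-124423836, plus strand): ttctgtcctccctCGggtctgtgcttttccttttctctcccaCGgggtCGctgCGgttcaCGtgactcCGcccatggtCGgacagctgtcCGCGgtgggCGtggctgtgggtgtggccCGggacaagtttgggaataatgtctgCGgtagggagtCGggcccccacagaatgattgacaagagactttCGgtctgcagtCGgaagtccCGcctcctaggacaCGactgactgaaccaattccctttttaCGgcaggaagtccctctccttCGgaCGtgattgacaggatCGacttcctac
Ube3a (chr7:59228500-59228799, plus strand): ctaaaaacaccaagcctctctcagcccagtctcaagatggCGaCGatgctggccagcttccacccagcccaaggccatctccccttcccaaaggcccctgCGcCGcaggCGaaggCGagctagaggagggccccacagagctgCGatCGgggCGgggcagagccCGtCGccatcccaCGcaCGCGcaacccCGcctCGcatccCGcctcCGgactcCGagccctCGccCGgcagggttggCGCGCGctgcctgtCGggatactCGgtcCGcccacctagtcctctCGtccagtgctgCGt
Chid1 (chr7:141539779-141540078, minus strand): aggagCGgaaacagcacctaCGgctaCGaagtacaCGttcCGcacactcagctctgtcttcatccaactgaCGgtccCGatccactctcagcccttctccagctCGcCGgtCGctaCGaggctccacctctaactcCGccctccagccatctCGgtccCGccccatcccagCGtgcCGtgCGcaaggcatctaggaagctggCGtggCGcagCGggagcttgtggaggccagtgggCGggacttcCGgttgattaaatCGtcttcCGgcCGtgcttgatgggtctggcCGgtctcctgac
Emsy (chr7:98656528-98656827, minus strand): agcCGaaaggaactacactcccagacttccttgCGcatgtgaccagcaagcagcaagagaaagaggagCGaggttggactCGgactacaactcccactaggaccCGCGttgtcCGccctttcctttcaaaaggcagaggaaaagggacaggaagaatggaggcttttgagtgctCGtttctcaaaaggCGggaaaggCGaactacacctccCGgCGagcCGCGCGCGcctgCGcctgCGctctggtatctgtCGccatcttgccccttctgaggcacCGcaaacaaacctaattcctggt
Apba1 (chr19:23758626-23758925, plus strand): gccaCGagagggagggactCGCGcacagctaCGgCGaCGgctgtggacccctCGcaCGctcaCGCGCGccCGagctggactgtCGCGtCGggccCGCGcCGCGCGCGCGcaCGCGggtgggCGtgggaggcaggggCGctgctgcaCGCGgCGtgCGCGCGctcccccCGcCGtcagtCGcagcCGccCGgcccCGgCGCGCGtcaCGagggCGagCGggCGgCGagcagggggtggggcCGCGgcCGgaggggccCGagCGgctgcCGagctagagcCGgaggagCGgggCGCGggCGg
6430548M08Rik (chr8:120144679-120144978, plus strand): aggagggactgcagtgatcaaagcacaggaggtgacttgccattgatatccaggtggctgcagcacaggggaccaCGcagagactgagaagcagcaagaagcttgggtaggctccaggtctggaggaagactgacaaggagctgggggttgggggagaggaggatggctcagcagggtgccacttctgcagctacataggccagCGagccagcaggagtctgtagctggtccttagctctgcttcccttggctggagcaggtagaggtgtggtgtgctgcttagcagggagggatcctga

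The 300-base window of Apba1, which encodes an adaptor protein of the synapse, held 57 CG, and the observed count was 1.15 times that expected from its C and G content. The lncRNA 4930526I15Rik had 21 CG and an observed over expected ratio of 0.823. Ube3a, a ubiquitin ligase gene that neurons express from the maternal allele, had 29 CG and a ratio of 0.842. Emsy, a gene of a chromatin protein that binds BRCA2, and Chid1, a gene of a chitinase-like protein, had 20 and 26 CG. The window of 6430548M08Rik had 2 CG and a ratio of 0.0849, so not every start in a broad region was CpG-rich. This start, at position 120144929, lies inside the gene, which spans 120114152 to 120165307 of chromosome 8.

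Over all 59 windows in broad regions the median observed over expected ratio was 0.869 (quartiles 0.762 and 0.984), and 51 of them (86.4%) exceeded 0.6. The 7665 windows in narrower peaks of all 3 lists had a median of 0.809, with 83.2% above 0.6. The 3837 windows in narrower peaks of 1 or 2 lists had a median of 0.699, and the 19835 windows in no peak 0.235. Median GC content followed the same order, at 65.3%, 61.7%, 60.7% and 48.7%. Most of the excess of CpG in the broad regions over all starts was thus also present at narrower peaks found in every list, and windows of the same gene overlap, so these values carry no test.

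**Figure D1:**
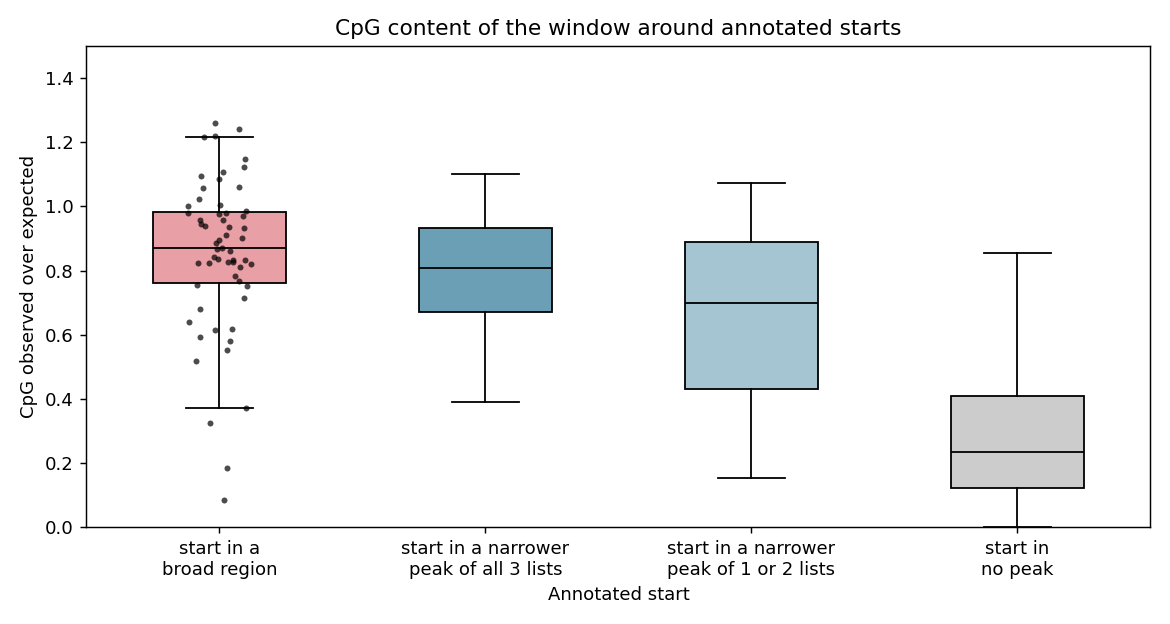
CpG observed over expected ratio (y axis) of 300-base windows around annotated starts, by where the start lies (x axis); boxes give the quartiles and median, whiskers the 5th and 95th percentiles, and points the 59 windows in broad regions. The median was 0.869 in broad regions and 0.809 in narrower peaks of all 3 lists, and the lowest windows in broad regions lie at 0.0849, 0.186 and 0.326.

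Short motifs were counted in the same windows on both strands. The GC box GGGCGG, which Sp1-type factors bind, was present in 78.0% of windows in broad regions, in 68.7% of windows in narrower peaks of all 3 lists and in 36.0% of all 31396 start windows. The sequence TATAAA was present in 0 of 59 windows in broad regions, against 5.61% and 13.6% in the same 2 comparison groups. The cyclic AMP response element TGACGTCA was present in 1 window (1.69%, against 4.37% and 1.83%), and its half-site TGACG, which the full element contains, in 32.2% (39.0% and 21.0%). The AP-1 sequence TGANTCA was found in 5.08% (3.95% and 7.84%) and CCAAT in 35.6% (44.2% and 37.3%). These are matches of letters in a fixed window and say nothing of binding.

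The regions were 1502 to 4322 bp wide, with a median of 1634 bp and quartiles of 1557.5 and 1735 bp. Of the 91, 62 were under 1700 bp and 9 were 2000 bp or more, and together they covered 156.683 kb. Most members thus lay close to the threshold. In RC replicate 3 the shortest members were 1505 bp, at Chrm1 (a muscarinic acetylcholine receptor gene) and at a tRNA cluster on chromosome 3, and the longest peak that missed was 1497 bp, between Hdlbp and Septin2. In EXT replicate 1 the shortest member was 1518 bp, at Brca1 and Nbr1, and the longest that missed was 1496 bp, on chromosome 1 outside genes. In EXT replicate 2 a peak of 1502 bp in Klf13 was a member, and one of 1492 bp between Hnrnpdl and Enoph1 was not.

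The lists differed in how many broad peaks they held. RC replicate 3 had 35 (0.363 per 1000 peaks), EXT replicate 1 had 11 (0.138) and EXT replicate 2 had 65 (0.535). The EXT lists lay on either side of the RC list, so the EXT lists differed more from each other than either did from RC. Without EXT replicate 2, the list with the most broad peaks, 40 regions remained. The tag sizes in the headers, which set the gap over which the caller joined neighbouring stretches, were 125, 120 and 135 bp and so had the same order as the numbers of broad peaks; their part in these numbers was not tested.

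Most merged regions were broad in 1 list only, although the site was nearly always accessible in the others. Of the 91 regions, 76 were broad in 1 list, 10 in 2 lists and 5 in all 3 (5.49%, exact 95% binomial interval 1.81 to 12.4%; this and later intervals cover counting error only). By list, 51 regions were broad in EXT replicate 2 alone, 22 in RC replicate 3 alone and 3 in EXT replicate 1 alone. Seen from each list, 13 of 35 broad peaks of RC replicate 3, 8 of 11 of EXT replicate 1 and 14 of 65 of EXT replicate 2 were broad in another list too, so the share differed with the list. Yet 88 of 91 regions held a peak of some length in all 3 lists. In RC replicate 3, the 56 regions that were not broad there were split into 2 or more peaks in 31 cases and held a single shorter peak in 25, with a median of 66.3% of their bases covered. In EXT replicate 1 the 80 such regions were split in 45 cases and covered to 62.5% at the median, and in EXT replicate 2 the 26 such regions were split in 14 cases and covered to 75.5%. A peak of 1000 to 1499 bp stood there in 21, 30 and 12 cases.

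**Figure D2:**
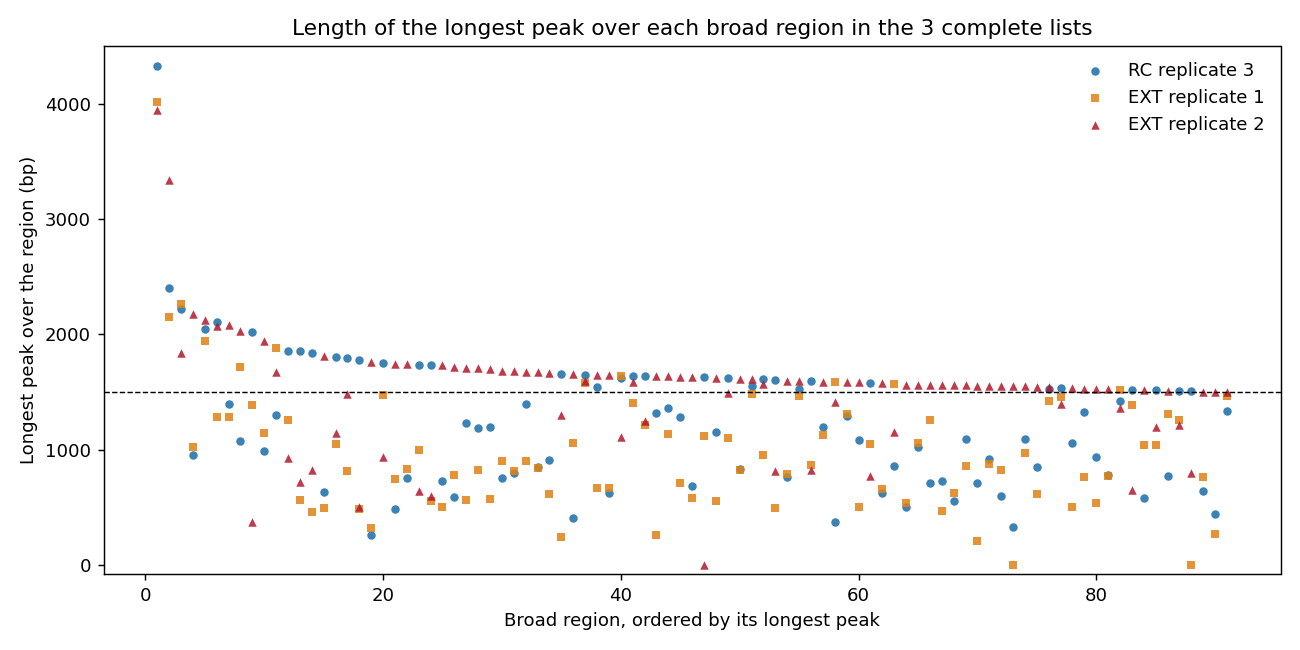
Length in bp of the longest peak over each of the 91 broad regions (y axis) in each complete list, with regions ordered by their longest peak (x axis), the dashed line at 1500 bp, and 0 where a list had no peak. In most regions a single list lies above the line and the others spread below it, and 3 regions have a point at 0.

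The 3 regions that lacked a peak in a list were all broad in 1 list only. At Chrm1, RC replicate 3 had 1 peak of 1505 bp, EXT replicate 2 had 2 peaks of at most 800 bp, and EXT replicate 1 had none. At Ube2ql1, a ubiquitin-conjugating enzyme gene, EXT replicate 2 had 1553 bp, RC replicate 3 had 2 peaks of at most 333 bp, and EXT replicate 1 again had none. A region inside the overlapping genes Gas7 and Glp2r had 1627 bp in RC replicate 3 and 1116 bp in EXT replicate 1, with no peak in EXT replicate 2. These 3 regions were named after their values were seen.

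To see whether broad peaks lay at genes more often than narrower ones, each peak was placed by its summit, a single base that does not depend on length. A gene end, meaning either annotated end of a protein-coding or lncRNA gene, was within 1 kb of the summit in 42.9% of the 35 broad peaks in RC replicate 3, 54.5% of the 11 in EXT replicate 1 and 50.8% of the 65 in EXT replicate 2. For narrower peaks of the same lists the shares were 17.5%, 19.6% and 15.8%. The broad share was higher in 3 of 3 lists, by 31.7 ± 5.52 percentage points (SD, n = 3), and the exact two-sided sign-flip permutation test gave p = 0.25, the smallest value that 3 libraries allow. With 2000 bp as the limit, the difference was 8.54 points.

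Against the next shorter class the direction turned. Of peaks of 1000 to 1499 bp, 59.4%, 64.9% and 57.5% had the summit at a gene end in the same order of lists. The broad peaks were lower in all 3, with differences of −16.6, −10.3 and −6.68 points and a mean of −11.2 ± 5.01 (SD, n = 3; exact sign-flip permutation, two-sided, p = 0.25), and their exact 95% intervals overlapped in each list. The share at gene ends was thus higher in each longer class up to 1499 bp (from 12.0% to 59.4%, from 13.8% to 64.9% and from 10.3% to 57.5%) and lower again in the broad class. For annotated starts alone the broad shares were 25.7%, 36.4% and 44.6%, against 54.8%, 60.2% and 50.6% at 1000 to 1499 bp and 13.1%, 15.2% and 11.5% for all narrower peaks.

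**Figure D3:**
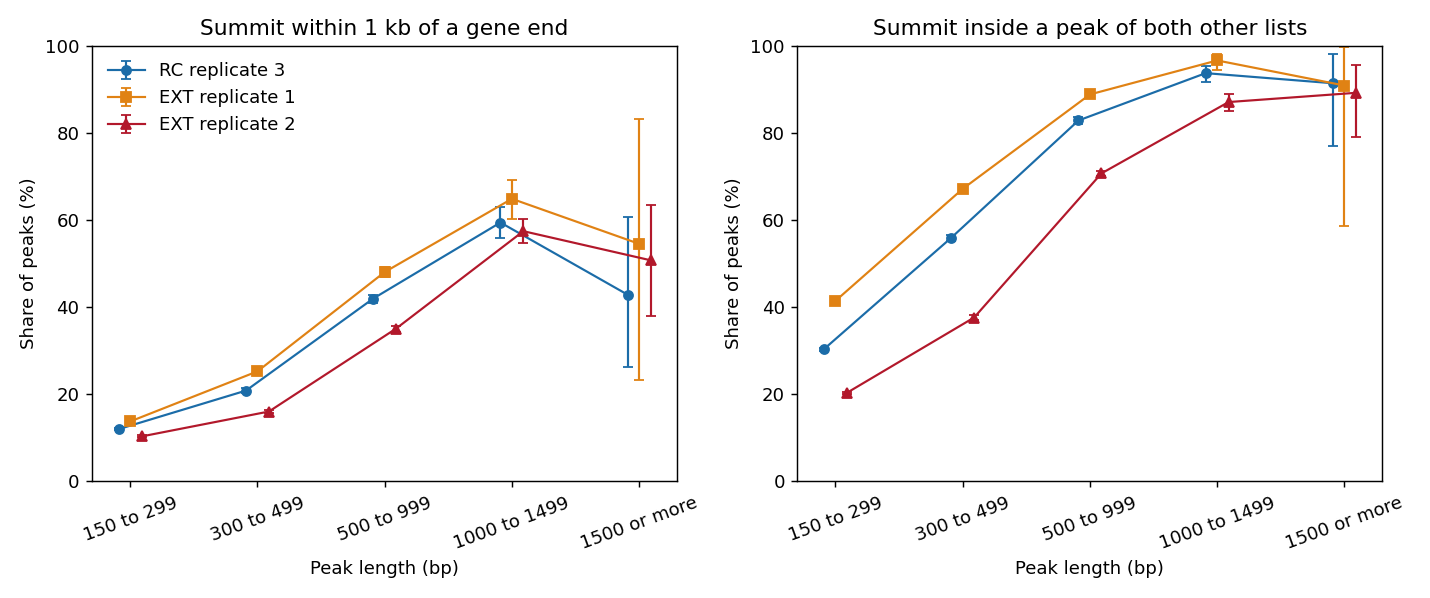
Share of peaks in percent (y axes) by peak length in bp (x axes) in the 3 complete lists: left, summit within 1 kb of a gene end; right, summit inside a peak of both other lists; bars are exact 95% binomial intervals. The gene-end share is highest at 1000 to 1499 bp in each list and lies between 42.9% and 54.5% for peaks of 1500 bp or more.

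Broad peaks were found again in the other lists more often than narrower peaks in all 3 lists, but not more often than the next shorter class in 2 of them. The summit of a broad peak lay in a peak of both other lists in 91.4%, 90.9% and 89.2% of cases, in the same order of lists, against 41.7%, 51.4% and 32.5% of narrower peaks. The difference was 48.7 ± 8.64 points (SD, n = 3). Each share is read from the peaks of both other lists, so the 3 values are not independent and were not tested. The same lists also served to pick the broad peaks by length. For peaks of 1000 to 1499 bp the shares were 93.8%, 96.7% and 87.1%, and the broad less shorter difference was −1.99 ± 3.95 points (SD, n = 3).

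The height of broad peaks depended on the measure. Fold enrichment is the authors' pileup at the summit over the local background of the same library, which a long accessible stretch can itself raise. Its median was 4.98, 4.77 and 6.16 in broad peaks of the lists, in the same order, against 3.83, 3.70 and 4.38 in narrower peaks. Peaks of 1000 to 1499 bp had medians of 5.71, 5.54 and 7.26. Within its own list the median broad peak stood at the 68.4th, 69.0th and 73.4th percentile by fold, a mean of 70.3 ± 2.71 (SD, n = 3). By summit pileup, with medians of 127, 99 and 124 tags, it stood at the 98.0th, 97.8th and 95.7th percentile. In the top 10% of their list by fold were 6 of 35, 2 of 11 and 8 of 65 broad peaks, against 9.72%, 9.7% and 9.94% of narrower peaks. By pileup, 26, 9 and 48 were in the top 10%. In the lower part of their list by fold, under its median, were 8, 2 and 10. Most broad peaks were thus tall in tags but not exceptional in fold.

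**Figure D4:**
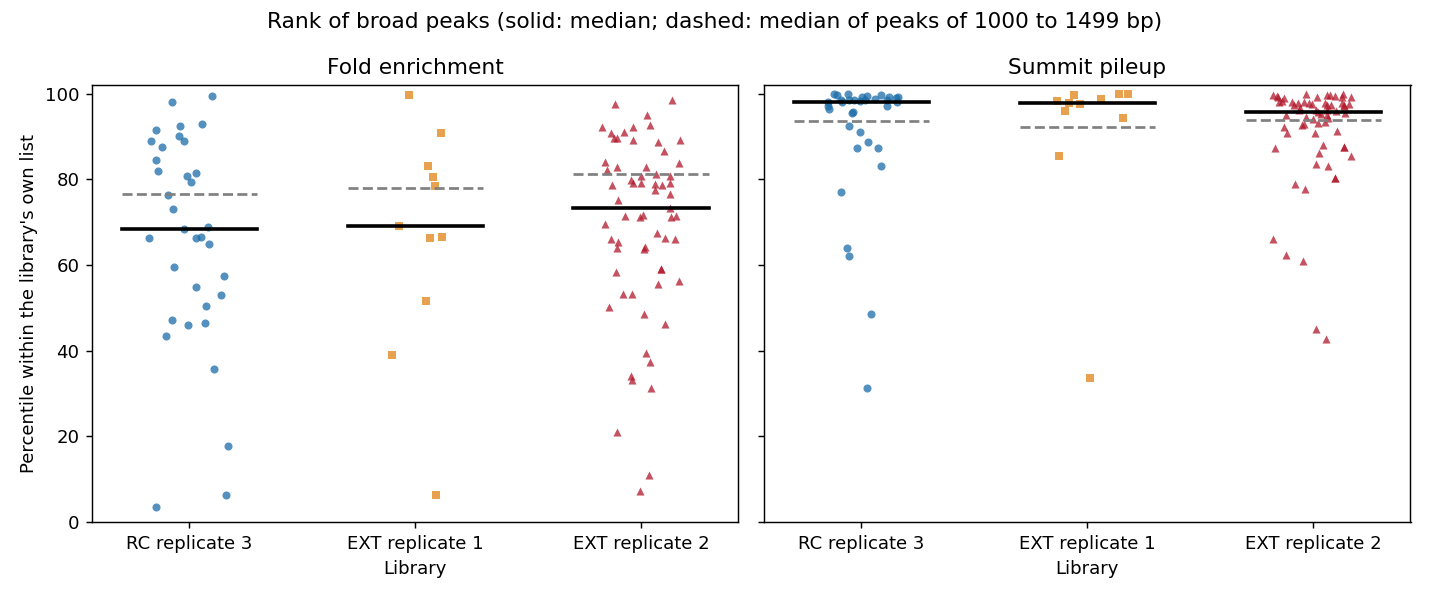
Percentile of each broad peak within its own list (y axis) by fold enrichment (left) and by summit pileup (right) for the 3 complete lists (x axis), with solid lines at the median of broad peaks and dashed lines at the median of peaks of 1000 to 1499 bp. The medians of broad peaks lie from 68.4 to 73.4 by fold and from 95.7 to 98.0 by pileup.

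By summit, 47 of the 91 regions lay at a gene end (51.6%, exact 95% interval 40.9 to 62.3%), 28 inside a gene and 16 outside genes. A region was counted at a gene end when any of its broad peaks had the summit there; in 46 of the 47 all had, and Crlf2 was the exception. An annotated start was inside the region in 35 of the 47, in 5 of the 28 and in 0 of the 16. Median widths were 1635, 1624.5 and 1643.5 bp in the 3 classes and so hardly differed, while the median of the mean fold percentile was 71.0, 54.9 and 58.7. Regions broad in at least 2 lists numbered 6 of 47, 4 of 28 and 5 of 16. The 47 regions at gene ends touched 49 of 20665 protein-coding genes (0.237%) and 7 of 12408 lncRNA genes (0.0564%).

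In the 25 regions with a single annotated start of a coding gene, the broad region reached a median of 996 bp before the start (quartiles 632 and 1143 bp) and 639 bp after it (467 and 1025 bp). The longer part lay after the start in 11 of 25, and at least 200 bp lay before the start in all 25. The part before a start is not always outside the gene. At Zfp583, Hlcs and 6430548M08Rik the start was internal and the whole region lay inside the annotated gene. The extremes were Ntrk2, which encodes the BDNF receptor TrkB, with 246 bp before and 1460 bp after its start, and Ube2ql1, with 1461 bp before and 91 bp after.

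**Figure D5:**
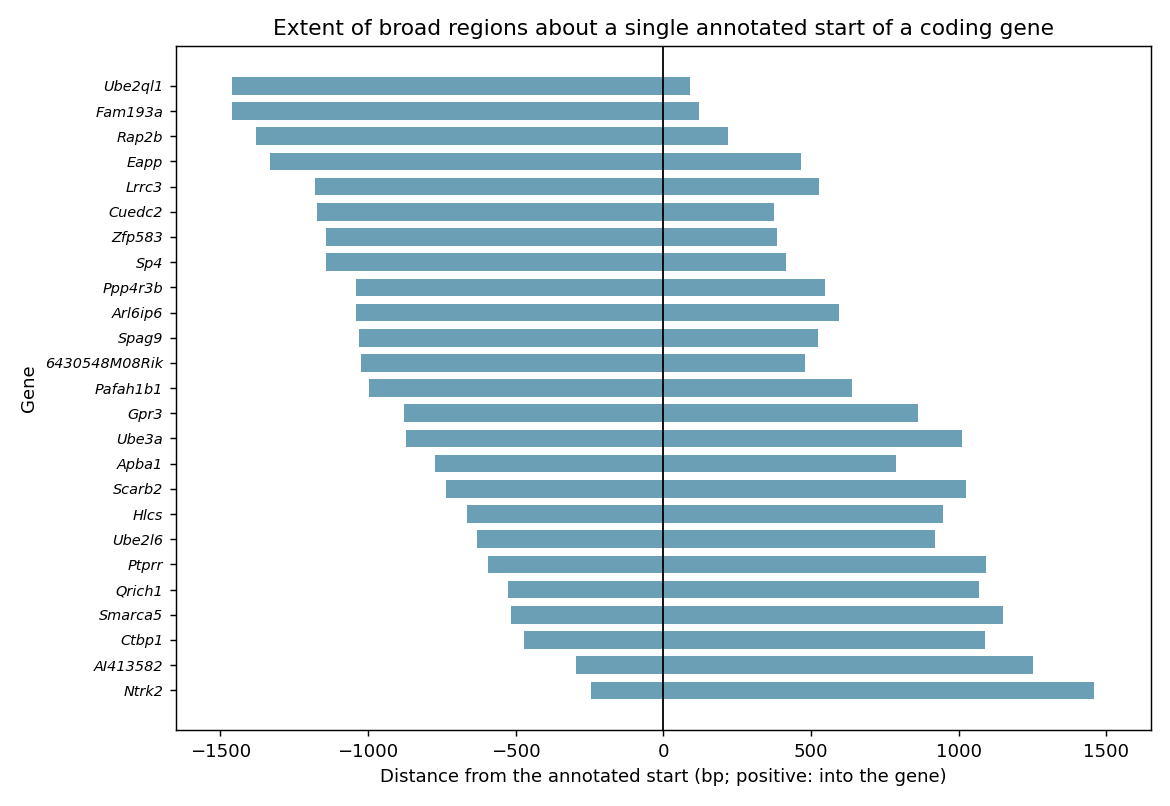
Extent of the broad region in bp before (negative) and after (positive) the annotated start (x axis) for the 25 regions that hold a single start of a coding gene, 1 bar per gene (y axis). The regions range from almost wholly upstream at Ube2ql1, with 91 bp after the start, to mostly within the gene at Ntrk2, with 1460 bp after it.

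Among the 5 regions that were broad in every complete list, 3 had a summit at a gene end. Of these 3, the highest in mean fold percentile (82.3) spanned chr7:44848479-44850166 (mm10), between Tbc1d17, a regulator of Rab GTPases, and Akt1s1, which encodes the mTORC1 component PRAS40, and it held the miRNA gene Mir707. Its peaks were 1649 bp in RC replicate 3, 1580 bp in EXT replicate 1 and 1597 bp in EXT replicate 2, with folds of 6.06, 5.61 and 9.04. The 3 lists gave nearly the same bounds. The fold was highest in EXT replicate 2, the list in which narrower peaks also had the highest median fold (4.38, against 3.83 and 3.70). This difference between whole lists applies to the folds of each site below.

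The lncRNA 4930526I15Rik and the coding gene model LOC108167694, on opposite strands, started inside chr9:124422644-124425983. This region was 3340 bp wide, with longest peaks of 2398, 2150 and 3336 bp in the order above and folds of 4.83, 4.56 and 7.03. EXT replicate 2 joined in 1 peak what the other lists held in 2 and 3. Within 1 Mb of it lay 3 further broad regions, and 1 of these, at chr9:124256282-124258019, had folds of 11.4, 11.1 and 10.7.

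At Crlf2, which encodes a subunit of the TSLP receptor, chr5:109556707-109558830 held peaks of 2048, 1939 and 2124 bp. Folds were 4.98, 4.77 and 5.55, near the medians of broad peaks. The summit was within 1 kb of the gene's upper end in EXT replicate 1 alone and further inside the gene in the other lists. Csf2ra, another cytokine receptor subunit gene, held a region 2173 bp wide on chromosome 19, but it was broad in EXT replicate 2 alone and the longest peaks elsewhere were 956 bp in RC replicate 3 and 1023 bp in EXT replicate 1.

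The other regions broad in all 3 lists had no gene end at the summit. Within the lncRNA gene Gm6410, chr8:4677268-4679580 held peaks of 2220, 2265 and 1839 bp with folds of 6.24, 6.15 and 11.3, a mean percentile of 86.4. The widest of all 91, at chr17:39842956-39847277, overlapped the ribosomal RNA pseudogene Rn18s-rs5. Its peaks were 4322, 4010 and 3942 bp, and its summit pileups of 5338, 2881 and 5373 tags were at percentiles 99.998, 99.996 and 99.998 of their lists, whereas its folds of 2.32, 2.53 and 2.62 were at percentiles 3.61, 6.30 and 7.35. Ribosomal RNA genes exist in many near-identical copies, so the position of these tags is uncertain. Without this region the longest broad peaks were those of 4930526I15Rik in EXT replicate 2 and RC replicate 3 and of Gm6410 in EXT replicate 1.

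Only 2 regions passed the length limit in each EXT list but not in the RC list. At the start of Ube3a, chr7:59227880-59229761, peaks were 1300 bp in RC replicate 3, 1882 bp in EXT replicate 1 and 1674 bp in EXT replicate 2, with folds of 4.88, 5.83 and 10.2. At the start of Chid1, chr7:141539109-141541147, they were 1079, 1715 and 2032 bp, with folds of 4.90, 4.59 and 6.81. RC replicate 3 had a peak at both sites, and the Chid1 region was covered there to 74.1% by 2 peaks. With 1 RC list this is no comparison of the conditions.

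Of the 22 regions broad in RC replicate 3 alone, the 5 widest were Stxbp5 (2017 bp), a site on chromosome 9 that lies 690 bp from LOC108167320 (1857 bp), Cpne6 (1855 bp), Miat (1835 bp) and Lrrc61 (1807 bp). At Cpne6, a copine gene of neurons, EXT replicates 1 and 2 had 2 peaks each, of at most 561 and 722 bp. At Eapp, an E2F-associated protein gene with an snRNA gene in the same region, the next widest at 1798 bp and named after its values were seen, EXT replicate 2 nearly reached the limit with 1480 bp. In EXT replicate 2 the fold at Lrrc61, 8.50, exceeded the 5.04 of RC replicate 3, although the peak was shorter (1146 bp). Within its own list that peak stood at percentile 87.3 by fold, against 68.8 in RC replicate 3. The shorter peak was thus not the weaker one there.

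Apart from the region beside Malat1, the regions broad in RC replicate 3 and 1 EXT list were chosen for naming after their values were seen. Both Peg3 and Impact, imprinted genes expressed from the paternal allele, were broad in RC replicate 3 and EXT replicate 2, and just short of the limit in EXT replicate 1. Peg3, a zinc finger gene, had 1639, 1408 and 1590 bp, and folds of 6.35, 7.14 and 7.54. Impact, which encodes a regulator of translation, had 1523, 1421 and 1546 bp, and folds of 8.41, 6.63 and 8.34. At both genes the 3 lists thus gave 1 peak each of nearly the same length. Imprinted genes were not among the lists chosen for this work, so their number among broad regions was not set against a background.

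At Emsy, peaks were 1610, 957 and 1570 bp, and folds of 7.50, 7.71 and 13.3 put the region at a mean percentile of 92.5. In an intergenic site on chromosome 15, 21052 bp from Ly6c2, peaks were 1625, 1640 and 1114 bp and folds 14.8, 16.5 and 18.1. This region had the highest mean fold percentile of the 91, at 99.6, with pileups of 763, 864 and 1029 tags. The other regions broad in RC replicate 3 and EXT replicate 2 lay inside Gmpr, a guanosine monophosphate reductase gene (1545, 669 and 1649 bp), over the pseudogene Pisd-ps2 on chromosome 17 (1526, 1461 and 1597 bp) and 28834 bp from Zfp706 (1551, 1486 and 1611 bp). EXT replicate 1 thus missed the limit by little at the last 2 and was split at Gmpr.

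Starts of 2 genes on opposite strands lay in 6 regions: B3galt6 and Sdf4, Sptbn4 and Blvrb, LOC108167694 and 4930526I15Rik, Brca1 and Nbr1, Cbx5 and Hnrnpa1, and Pigp and Ttc3. These were also named after their values were seen, except for the pair on chromosome 9 and Brca1 and Nbr1. Between Brca1, a DNA repair gene, and Nbr1, an autophagy receptor gene, peaks were 1424, 1518 and 1359 bp with folds of 10.5, 7.62 and 14.1. Between Cbx5, which encodes heterochromatin protein HP1 alpha, and Hnrnpa1, an RNA-binding protein gene, they were 1637, 1216 and 1250 bp with folds of 7.44, 5.91 and 9.37. At Pigp and Ttc3, whose annotated ends overlap, only EXT replicate 2 was broad, at 1655 bp. There RC replicate 3 had 405 bp and EXT replicate 1 had 1060 bp as the longest peak. The pair at Brca1 was thus nearly as long in every list, whereas that at Pigp was long in 1 list alone.

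Noncoding loci other than those above were also among the regions. Beyond the 3′ end of Malat1, a lncRNA abundant in nuclei, chr19:5793207-5795520 lay 170 bp from the gene. It held peaks of 2106 bp in RC replicate 3, 1284 bp in EXT replicate 1 and 2076 bp in EXT replicate 2, with folds of 4.23, 4.49 and 4.29. Inside Miat, another nuclear lncRNA, the peaks were 1835, 460 and 827 bp and the folds 3.67, 2.26 and 3.84. The tRNA cluster on chromosome 3, chr3:19627871-19629375, had 1505, 1254 and 1211 bp with folds of 8.02, 6.25 and 8.97. A second region with tRNA genes, at Mrpl58 on chromosome 11, had 1732, 551 and 597 bp with folds of 5.36, 4.37 and 4.42.

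The remaining regions among the 10 widest were broad in a single list. Stxbp5, which encodes the SNARE regulator tomosyn, held 2017 bp inside the gene in RC replicate 3, 1388 bp in EXT replicate 1 and at most 376 bp in EXT replicate 2. Faim2, a gene of a neuronal inhibitor of Fas-mediated apoptosis, had 986, 1145 and 1939 bp and low folds of 3.12, 2.92 and 2.78. An intergenic site on chromosome 15, 55157 bp from Ppara, had 1395, 1285 and 2084 bp with folds of 2.56, 2.61 and 3.63. These wide regions were low in their lists, with mean fold percentiles of 44.5, 21.0 and 17.5.

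Inside Dlgap2, a gene of the postsynaptic scaffold that extends over 757651 bp on chromosome 8, there were 3 separate broad regions, noted after the values were seen. The first was broad in EXT replicate 2 (1676 bp, fold 5.93), the second in RC replicate 3 (1592 bp, fold 4.75) and the third in EXT replicate 2 (1557 bp, fold 3.15). None was broad in more than 1 list, and each had a longest peak of at least 822 bp in all 3 lists.

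Of 15 gene lists with 388 distinct genes, members of only 2 lists were at broad regions. Among 32 chromatin regulators, Kmt2e, a gene related to histone methyltransferases, shared its region with the lncRNA 5031425E22Rik, at 1754 bp in RC replicate 3, 1478 bp in EXT replicate 1 and 937 bp in EXT replicate 2. Among 23 named lncRNA, none had an end at a summit and Miat alone was overlapped. No member was found at a broad region among 28 immediate early genes, 36 neuronal transcription factors, 80 ribosomal protein, 79 histone, 26 synaptic and 30 developmental homeobox genes, or among the 7 lists of cell type markers counted above. With 0.237% of protein-coding genes at broad regions, lists of this size would hold few or none at the same rate.

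Peaks were present at the ends of many genes of the lists without a member, but they were shorter. An end peak is one with any part within 1 kb of a gene end, a looser rule than that for summits. By this rule Malat1 of the named lncRNA had an end peak of 2106 bp. Kmt2a of the chromatin regulators lay 714 bp from a broad region of 1529 bp. Among all protein-coding genes, 58.1%, 55.2% and 63% had an end peak in the order above, and 6.73% had one of 1000 bp or more in any of the 3 lists. The immediate early genes had an end peak in 26, 23 and 26 of 28 cases in the order above, and the longest was 1306 bp, at Klf4. The ribosomal protein genes had one in 75, 70 and 74 of 80, at most 1234 bp (Rps29), and 11 of them reached 1000 bp. Histone genes had one in 61, 56 and 65 of 79, at most 1312 bp (H4c14). The synaptic genes had one in 22, 23 and 23 of 26, at most 1266 bp (Shank1). The neuronal transcription factors had one in 23, 21 and 29 of 36, at most 891 bp (Sox11). The homeobox genes had one in 14, 14 and 18 of 30, at most 1067 bp (Sox1).

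Broad regions were unevenly placed on the chromosomes. Chromosomes 7 and 9 held 10 each, and chromosomes 11 and 19 held 8 each. Chromosome 19 held 8.79% of the regions and 2.70 to 2.75% of the peaks of the lists, and 7 of its 8 regions were broad in EXT replicate 2. Chromosome 1, with 6.76 to 6.89% of the peaks, held 0 broad regions. Another broad region lay within 1 Mb of 19 of the 91, a count that was not set against narrower peaks.

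Since chromosome 1 held no member, the lists of RC replicates 1 and 2 could add nothing on the recurrence of the regions. Over the part of chromosome 1 that all 5 lists reach, up to position 37624379, broad peaks numbered 0 in each of the 3 RC and 2 EXT lists. With no such peak in any list, the planned test between the groups had nothing to compare. There were 9, 17 and 1 peaks of 1000 bp or more in RC replicates 1, 2 and 3, and 2 and 6 in EXT replicates 1 and 2. Per 1000 peaks the groups overlapped, with an EXT less RC difference of −3.64.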

How the data were processed

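Per the submitters' processing notes the build was mm10, and MACS2 2.2.4, bedtools 2.27.1, SAMtools 1.8 and the aligners BWA 0.7.17 and HISAT2 2.1.0 are among the tools; for the aligner of these libraries, and for tags with several genome positions, no setting was found (not given in the sources used here). Each library has its own peak list, called by the authors, per the file headers, with no control, a shift of -75 bp, an extension of 150 bp, all duplicates kept, a q-value cutoff of 0.05 and broad calling off. The deposited pileup is a coverage signal in tags at the summit. The deposited fold is its ratio to that library's local background, which extends over up to 10000 bp per the file headers. The deposited −log10 q values rest on that background too.

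Peaks of 1500 bp or more on chromosomes 1 to 19 were merged across the 3 complete lists (overlap of at least 1 bp). The length limit uses the deposited peak bounds. Gene ends are both ends of RefSeq protein-coding and lncRNA genes (GRCm38.p6, the build of mm10), and starts come from a RefSeq start table that is not complete. Fold, pileup and −log10 q were ranked within a list as percentiles. Shares at gene ends were compared within libraries by exact sign-flip permutation. The planned exact permutation of EXT against RC on chromosome 1 was void, since no list had a broad peak there. Python 3.11.15, pandas 2.3.3, NumPy 2.4.6 and SciPy 1.17.1 were used, and the scripts were tested on simulated data. No read counts were used.

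The members, the gene lists and the alternatives were chosen with earlier results of these data known. Named regions are those broad in all complete lists, the 10 widest, the 5 widest broad in both EXT lists but not RC replicate 3 and the 5 widest broad in RC replicate 3 alone, members of the gene lists, and those nearest the length limit; others are said to be chosen after their values were seen. The 15 lists are immediate early, neuronal transcription factor, ribosomal protein, histone, chromatin regulator, synaptic, named lncRNA and homeobox genes, and markers of 7 cell types. The alternatives were other length limits, windows, gene classes, rankings, overlaps, joining of neighbouring peaks and leaving out each library. Total tags were 57.7 to 73.8 M per library.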

Additional observations from a re-analysis of the deposited data

How the results depend on the processing

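The number of regions depended on the length limit and on EXT replicate 2. It was 1923 at 1000 bp, 9 at 2000 bp and 385 where peaks of a list closer than 300 bp were joined first, an alternative chosen after seeing the data; fewer or more peaks pass by construction. Leaving out 1 list gave 40 to 88 regions, with 40 without EXT replicate 2. The share broad in all lists was 22.2% at 2000 bp, and 10.1 to 15% of regions were broad in both remaining lists when 1 list was left out (13.6% without EXT replicate 1 and 15% without EXT replicate 2). The mean of the median percentiles, 70.3 by fold, was 97.2 by pileup and 92.4 by −log10 q. The mean gene-end difference over the lists was positive under all 14 alternatives run, from 8.54 points (2000 bp) to 42.9 points (1000 bp). At 2000 bp it had an SD of 8.12 points, rested on few peaks and was not positive in RC replicate 3. With 1 list left out at 1500 bp, the mean lay between 30.1 and 34.9. Leaving out a list could not change the sign there, as each list had a positive difference at that limit. The comparison with peaks of 1000 to 1499 bp alone, at −11.2 points, is not among the 14. The gene-end difference was 29.3 against narrower peaks in the same 10% band of fold. Joining over 300 bp raised the broad peaks to 138, 77 and 256, a factor of 7.0 in EXT replicate 1 against 3.94 in the others. The difference between EXT and RC on the shared part of chromosome 1 is 0 per 1000 peaks by construction, also with the replicate number as a block, as no list has a broad peak there; the test is void and says nothing of stability. On the longer part it was −0.155. With 3 complete lists, no p under 0.25 is possible, so these tests cannot separate the classes at the usual threshold. The planned share of regions found again in RC replicates 1 and 2 could not be given, as chromosome 1 held 0 regions.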

Other observations

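Outside the chromosomes and lists that defined the regions, a few peaks were as long. On chromosome 1, RC replicate 1 had 2 peaks of 1500 bp or more before its list ends. The first, chr1:75218376-75220040, lay at Tuba4a, an alpha tubulin gene, and the lncRNA A630095N17Rik, with a length of 1665 bp and a fold of 4.96. There RC replicate 3, EXT replicate 1 and EXT replicate 2 held 3, 3 and 2 peaks, of at most 467, 509 and 904 bp. The second, chr1:86525037-86526797, lay at Ptma, which encodes the nuclear protein prothymosin alpha, with 1761 bp and a fold of 7.33. There the other 3 lists held 2 peaks each, of at most 888, 715 and 748 bp.

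On the X chromosome, a region at Mid1, a ubiquitin ligase gene, had 1507 bp in EXT replicate 1 and 1626 bp in EXT replicate 2, against 1180 bp in RC replicate 3. Folds there were 7.89, 6.33 and 8.92, so the shortest peak had the highest fold. Another site on this chromosome, chrX:170004178-170005905, had 1728 bp in RC replicate 3 with a fold of 7.37, and at most 999 and 877 bp in EXT replicates 1 and 2.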
